A study of Homo sapiens with 18 samples.

Results

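Nucleotide excision repair removes bulky DNA damage such as that made by ultraviolet light, and TFIIH is its helicase: the complex opens the DNA around the lesion so that a pair of nucleases can cut out the damaged strand. The genes described here encode the proteins that work with TFIIH in that pathway and are not part of it. They were chosen by gene ID from a list of symbols and are XPC, RAD23B, DDB1, DDB2, ERCC6, ERCC8, XPA, ERCC1, ERCC4 and ERCC5, 10 of the 23604 genes listed in the RNA-Seq files. All 10 were found, and all 10 passed the filter on low counts that left 16948 genes for testing.

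In global genome repair the damage is found by XPC, carried by RAD23B, and by the UV-damage binding pair DDB1 and DDB2. Where RNA polymerase II (RNAPII) has stalled at a lesion, CSB (the product of ERCC6) and CSA (the product of ERCC8) bring in the same machinery. After TFIIH has opened the DNA, XPA checks the lesion, the ERCC1 and XPF (ERCC4) pair cuts on its 5′ side and XPG (ERCC5) cuts on its 3′ side. TFIIH itself is shared with transcription, where its XPB subunit opens promoters for RNAPII.

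The samples were cultures of MCF10A-Er-Src, a breast epithelial line that carries a v-Src kinase switched on by tamoxifen. Cells without tamoxifen (NT) and cells transformed by tamoxifen (TAM) were each given DMSO or 0.125 µM triptolide (TPL), a small molecule that binds XPB, for 4 h. The 4 RNA-Seq groups, written NT, NT+TPL, TAM and TAM+TPL, held 2 libraries each, and every group came from the same engineered line, so no comparison has a line without the v-Src construct. RNAPII ChIP-Seq gave 1 peak list per condition.

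Total expected counts, the reads per gene that RSEM estimates, lay between 7461309 and 8349448 per library. The libraries with TPL listed more genes (19584 to 20156) than those without (18485 to 18566). Of 6 basal mammary epithelial markers all were detected, with a summed level of 12894 to 14546 FPKM (fragments per kilobase of transcript, scaled to the mapped reads) in NT against 9270 to 11383 in NT+TPL, then 3109 to 3349 in TAM against 1608 to 1761 in TAM+TPL. KRT5 and KRT17 make up most of these sums, and single markers differed: ITGB4 stood higher with TPL (365.73 and 392.77 FPKM in NT against 723.82 and 532.83 in NT+TPL), and TP63 was no lower in TAM (24.19 and 23.04) than in NT (13.16 and 23.61). The 6 luminal markers summed to 891 to 950 FPKM in NT against 775 to 923 in NT+TPL, then 618 to 656 in TAM against 538 to 545 in TAM+TPL. Among them ESR1 stood at 199.65 and 248.49 FPKM in NT against 95.30 and 68.49 in TAM, and PGR did not exceed 0.01. KRT18 was no lower in TAM (457.12 and 450.27) than in NT (443.27 and 377.09). Whether ESR1 reads came from the Er-Src construct was not tested. The 4 leukocyte markers, of which CD14 had the highest level, summed to 9.52 to 11.52 FPKM in NT against 16.86 to 19.93 in NT+TPL and to between 7.19 and 9.65 in the TAM libraries with and without TPL. Fibroblast markers summed to between 4.27 and 12.95 FPKM, and 2 of 3 endothelial markers stayed under 0.1 FPKM in every library. The part of these marker differences in the results that follow was not tested.

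The sequences before the starts of 3 of the genes are shown because the results turn on them: RAD23B and DDB2 were the members whose RNA changed in both cell states, and ERCC4 was a member whose RNAPII peak lay across its start in only some of the lists. Each is the 250 bases upstream of the RefSeq start, taken from the RefSeq promoter table (GRCh38.p14) and placed on GRCh37 (hg19) by an exact match. Capitals mark letters of any of the 6 motifs searched on both strands. GGGCGG is the GC box that SP factors read, CCAAT the site of NF-Y, TATAAA the TATA box, CGGAAG the core of ETS sites, TGCGCA part of the NRF1 site and ATGGCG part of the YY1 site.
RAD23B, chr9:110045310-110045559, plus strand: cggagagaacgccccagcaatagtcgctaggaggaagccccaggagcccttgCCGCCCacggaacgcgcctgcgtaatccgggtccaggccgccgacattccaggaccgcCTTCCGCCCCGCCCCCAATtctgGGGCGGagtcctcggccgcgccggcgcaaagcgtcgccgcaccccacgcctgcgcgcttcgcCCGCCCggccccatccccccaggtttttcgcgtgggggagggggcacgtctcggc
DDB2, chr11:47235755-47236004, plus strand: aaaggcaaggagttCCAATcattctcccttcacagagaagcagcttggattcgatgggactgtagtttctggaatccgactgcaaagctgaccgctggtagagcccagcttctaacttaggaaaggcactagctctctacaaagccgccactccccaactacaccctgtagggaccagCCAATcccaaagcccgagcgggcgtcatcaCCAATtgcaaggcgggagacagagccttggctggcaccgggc
ERCC4, chr16:14013761-14014010, plus strand: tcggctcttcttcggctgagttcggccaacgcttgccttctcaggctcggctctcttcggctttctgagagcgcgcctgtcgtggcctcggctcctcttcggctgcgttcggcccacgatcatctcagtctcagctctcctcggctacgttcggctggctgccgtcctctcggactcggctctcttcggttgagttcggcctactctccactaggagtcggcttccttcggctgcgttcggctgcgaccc
RAD23B held 5 copies of GGGCGG, 1 CCAAT and 1 CGGAAG, some of which touch or overlap, and its 250 bases had a GC content of 73.2%. DDB2 held 3 copies of CCAAT and no other motif, at 55.6% GC. ERCC4 held none of the 6, at 63.6% GC. Over the 10 members, GGGCGG was found in 5 (56.0% of 15843 promoters of protein-coding genes had it), CCAAT in 3 (34.5%), CGGAAG in 2 (21.7%), TGCGCA in 1 (9.1%), and TATAAA (9.2%) and ATGGCG (7.4%) in 0. The RefSeq start of DDB2 lies 520 bases upstream of its GENCODE canonical start, and that of ERCC1 lies 27630 bases upstream, so the window of ERCC1 is not that of its main start.

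RNA levels of the 10 genes, per length, fell into a high and a low class. In NT cells ERCC1 stood at 163 ± 13.4 FPKM (SD, n = 2), RAD23B at 75.8 ± 9.18 and DDB1 at 60.9 ± 6.05, while the other 7 lay between 2.41 and 8.06. DDB2, XPA and XPC followed at 8.06 ± 0.177, 6.58 ± 0.354 and 5.16 ± 0.672 FPKM. The libraries of XPC (4.68 and 5.63) and ERCC5 (4.07 and 5.18) overlapped, as did those of ERCC6 (1.99 and 3.03), ERCC8 (2.47 and 2.41) and ERCC4 (2.40 and 2.41), so their order was not resolved. ERCC1 was first in all 4 groups. RAD23B was the second in NT and the third in the other groups, although in TAM its libraries (49.44 and 54.29) overlapped those of DDB1 (57.39 and 48.03).

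Of 4 pairs of partners, 3 were far from equal in RNA. XPC RNA amounted to 6.75 and 6.84% of RAD23B RNA in the NT libraries against 19.3 and 31.4% in NT+TPL, then 14.3 and 10.4% in TAM against 23.1 and 25.8% in TAM+TPL. DDB2 RNA amounted to 14.4 and 12.2% of DDB1 RNA in NT and to 22.9 and 39.7% in NT+TPL, and to 8.59 and 11.4% in TAM against 21.1 and 20.7% in TAM+TPL. ERCC4 RNA amounted to 1.39 and 1.57% of ERCC1 RNA in NT and to 3.32 and 2.86% in NT+TPL, and to 1.31 and 1.14% in TAM against 2.30 and 2.63% in TAM+TPL. These 3 ratios were higher in every TPL library than in the untreated libraries of the same state. The pair that acts at stalled RNAPII was nearer to equal, with ERCC8 RNA at 79.5 to 218% of ERCC6 RNA over the 8 libraries. For these bulk values, and for every result below, fewer cells with a given RNA and less of that RNA per cell cannot be told apart, and each level is relative to its library's total.

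**Figure D1:**
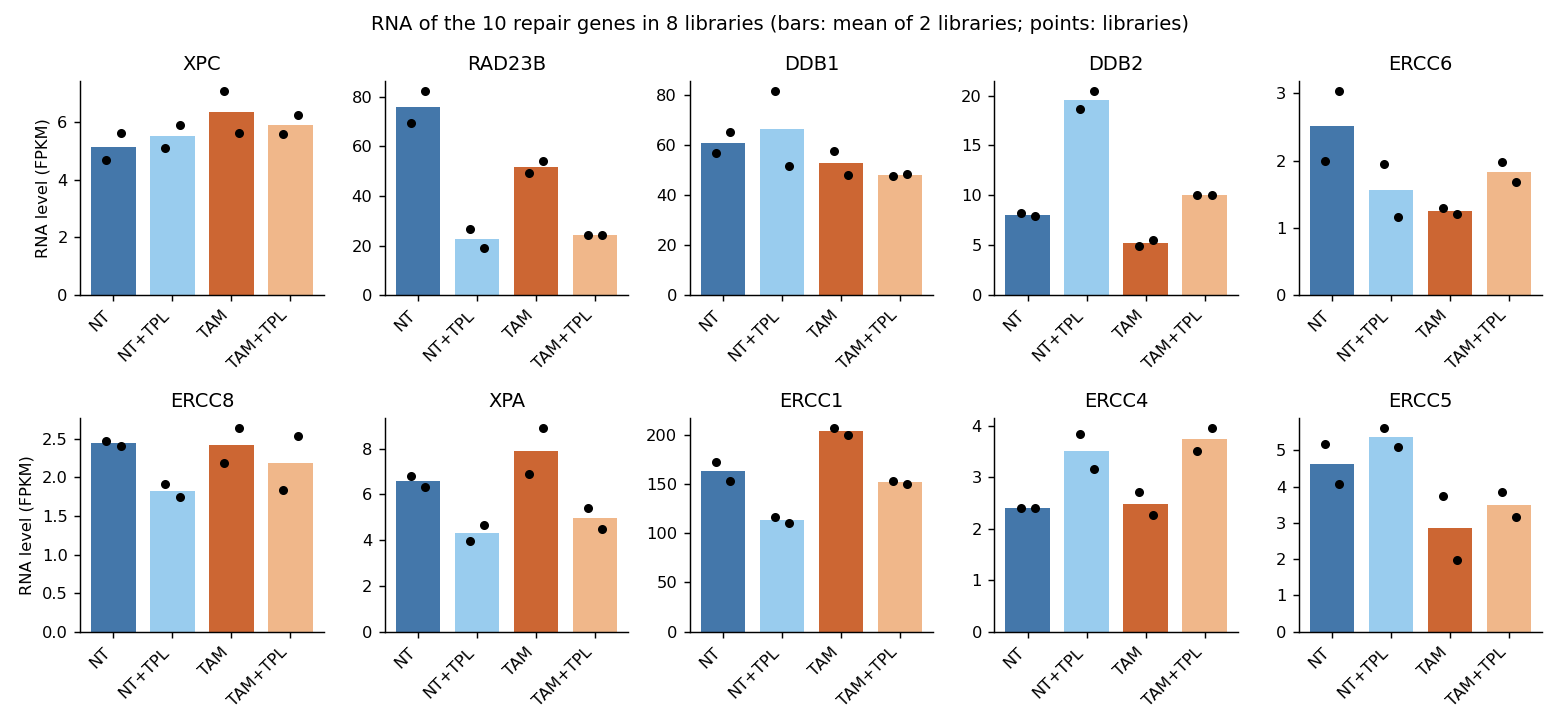
RNA level in FPKM (vertical axis, linear, from 0, its own scale in each panel) of the 10 genes in the 4 groups; bars are means and points the 2 libraries. RAD23B and ERCC1 lie lower, and DDB2 and ERCC4 higher, in every TPL library than in the untreated libraries of the same cell state.

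The question of the first comparison is what TPL does to the RNA of TFIIH's repair partners in each cell state. RAD23B fell and DDB2 rose in both states, and the other 8 members did not pass the test in either. A strict and a wide rule were used on the p-values of edgeR, which were adjusted over 16948 genes by the Benjamini-Hochberg method. The strict rule asks for an adjusted p no higher than 0.001 together with a log2 fold change of size 1.2 or more, and the wide rule for an adjusted p no higher than 0.05 alone. By the wide rule 2 of 10 members were called in NT cells, where 37.0% of all genes were, and 2 of 10 in TAM cells, where 33.0% were. By the strict rule 1 member (RAD23B) was called in NT cells (3.93% of all genes) and 0 in TAM cells (2.88%). In TAM cells 5 members had an unadjusted p under 0.05 in edgeR's test. Of all 16948 genes, 3567 that were higher and 4073 that were lower had such a p. DESeq2 called 4 members in TAM cells by the wide rule, and 6675 of all 16948 genes. On scaled counts the TPL and untreated libraries did not overlap for 8 members in NT cells (70.0% of all genes) and for 7 in TAM cells (75.0%), shares close to those of all genes. On FPKM these counts were 7 and 6, since ERCC5 in NT and DDB1 in TAM cells then overlapped.

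RAD23B, the ubiquitin receptor that stabilizes XPC (chr9:110045560-110094470, plus strand), gave the largest change of the list in both states. Its level was 69.34 and 82.32 FPKM in the NT libraries against 26.57 and 18.86 in NT+TPL, then 49.44 and 54.29 in TAM against 24.13 and 24.26 in TAM+TPL. All 4 TPL libraries lay below all 4 untreated ones, and those with TPL were alike in the 2 states. The log2 fold change was -1.75 ± 0.184 (SE; 3.37-fold lower, adjusted p = 0.000913, edgeR) in NT cells and -1.17 ± 0.182 (2.26-fold lower, adjusted p = 0.0040, edgeR) in TAM cells. The difference between the 2 effects was 0.58 ± 0.254 on the log2 scale with an adjusted p of 0.481 (edgeR interaction), so it was not shown that they differ. With any one of the 8 libraries left out, the log2 fold change in NT cells lay between -1.99 and -1.52. The strict call was then lost, while the wide call held. The same fits took the strict call from most or all genes, so its loss there is not particular to RAD23B. The strict call of RAD23B was also lost with DESeq2 size factors, library size alone and upper quartile scaling. In those fits 609, 566 and 570 of all genes still passed the strict rule in NT cells, against 666 in the main fit.

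DDB2, the damage-binding subunit of the UV-DDB complex and a known p53 target (chr11:47236525-47260768, plus strand), moved the other way. Its level was 8.18 and 7.93 FPKM in NT against 18.67 and 20.44 in NT+TPL, then 4.93 and 5.48 in TAM against 10.02 and 10.02 in TAM+TPL. Each TPL library lay above both untreated libraries of its state, and TAM+TPL lay only a little above NT without TPL. The log2 fold change was 1.26 ± 0.165 (2.40-fold higher, adjusted p = 0.00189, edgeR) in NT cells and 0.89 ± 0.168 (1.85-fold higher, adjusted p = 0.00845, edgeR) in TAM cells. The interaction was -0.37 ± 0.234 (adjusted p = 0.607, edgeR). Without TAM replicate 1 the value in TAM cells was 0.84 with an adjusted p of 0.0535 (edgeR).

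**Figure D2:**
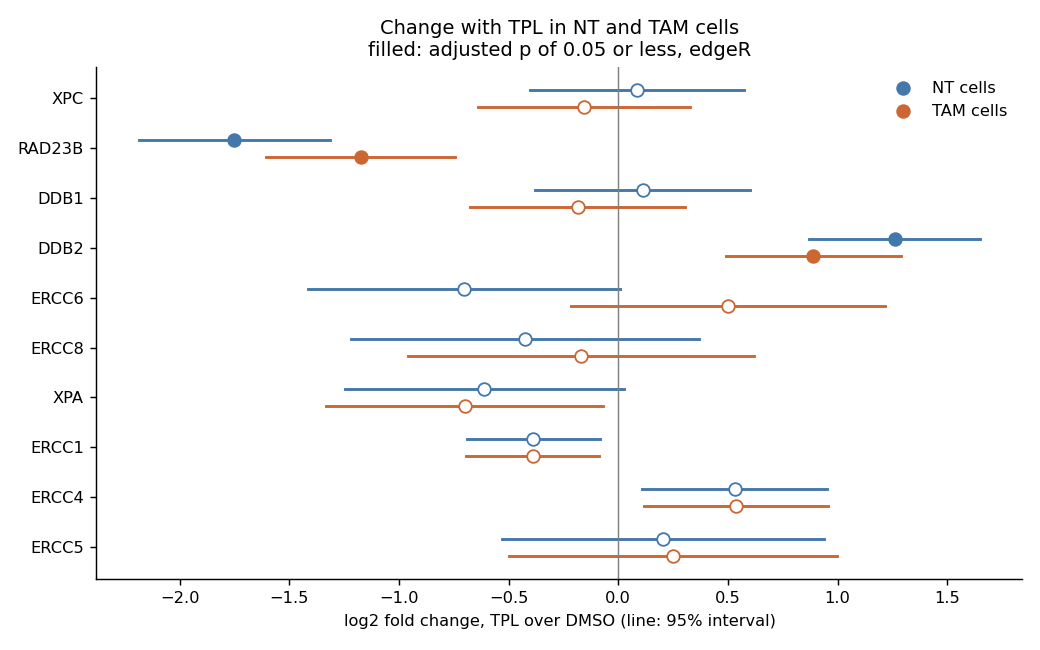
Log2 fold change of each gene with TPL over DMSO (horizontal axis) in NT cells (blue) and TAM cells (orange), with 95% intervals as lines; filled points have an adjusted p of at most 0.05 in edgeR's test. RAD23B lies at -1.75 and -1.17 and DDB2 at 1.26 and 0.89, and the intervals of most others reach 0 or come near it.

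Averaged over both states, with 4 libraries on each side, 5 of 10 members passed the wide rule, where 51.8% of all genes did, and 1 passed the strict rule (10.1%). RAD23B (-1.46 ± 0.129, adjusted p = 0.000195, edgeR), XPA and ERCC1 were lower and DDB2 (1.08 ± 0.118, adjusted p = 0.000464, edgeR) and ERCC4 were higher. The strict call of RAD23B was lost without NT replicate 2 and without any one of the TAM and TAM+TPL libraries. These fits took the strict call from most genes. With any one library left out, the averaged value of RAD23B lay between -1.57 and -1.34. XPC, DDB1, ERCC5, ERCC6 and ERCC8 had averaged changes between -0.30 and 0.23 with adjusted p from 0.321 to 0.861.

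XPA, the scaffold that checks the lesion (chr9:100437191-100459622, minus strand), stood at 6.83 and 6.33 FPKM in NT against 3.95 and 4.65 in NT+TPL, then 6.88 and 8.91 in TAM against 5.41 and 4.51 in TAM+TPL. The groups did not overlap in either state, and no TPL library reached an untreated one. Averaged over the states it fell by 0.66 on the log2 scale (SE 0.189, adjusted p = 0.0247, edgeR), with values of -0.61 (adjusted p = 0.116) in NT and -0.70 (adjusted p = 0.0847) in TAM cells. These rest on 47 to 111 expected counts per library, and the averaged call was lost without any one of 5 libraries (both NT libraries, NT+TPL replicate 1, TAM replicate 2 and TAM+TPL replicate 2), with adjusted p between 0.0526 and 0.0878 and values between -0.67 and -0.55. Upper quartile scaling took it to -0.43 (adjusted p = 0.10).

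The pair that makes the 5′ cut split in direction. ERCC1, the binding subunit of the pair (chr19:45910592-45927175, minus strand), stood at 172.38 and 153.37 FPKM in NT against 116.05 and 110.63 in NT+TPL, then 206.90 and 199.77 in TAM against 153.13 and 150.36 in TAM+TPL. Every TPL library was below the untreated libraries of its state. On FPKM, TAM+TPL lay only slightly below NT. That closeness was not seen on scaled counts, which were 336 and 305 in TAM+TPL against 439 and 382 in NT. Those of NT+TPL were 312 and 316. On counts the averaged change was -0.39 ± 0.0908 (adjusted p = 0.0109, edgeR), at -0.39 in each state (adjusted p = 0.0524 in NT and 0.0553 in TAM cells). Without TAM+TPL replicate 2 the averaged value was -0.34 with an adjusted p of 0.0552, and upper quartile scaling took it to -0.16 (adjusted p = 0.203). ERCC4, whose product XPF holds the nuclease site (chr16:14014011-14046205, plus strand), stood at 2.40 and 2.41 FPKM in NT against 3.85 and 3.16 in NT+TPL, then 2.71 and 2.27 in TAM against 3.52 and 3.96 in TAM+TPL. All 4 TPL libraries lay above all 4 untreated ones. The averaged change was 0.53 ± 0.126 (adjusted p = 0.0114, edgeR), at 0.53 in NT (adjusted p = 0.0544) and 0.54 in TAM cells (adjusted p = 0.0566), and scaling to equal GAPDH took it to 0.29 (adjusted p = 0.169).

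ERCC1 also differed between its counts and its FPKM. Its expected counts were 3530 and 3072 in NT and 3484 and 3395 in TAM, with a log2 change of 0.03 ± 0.128 between them (adjusted p = 0.939, edgeR). On log2(FPKM + 1) the same difference was 0.32 ± 0.113 (adjusted p = 0.164, limma), and with TPL it was 0.42 (adjusted p = 0.0716, limma) against 0.03 on counts. The file divides by a mean transcript length that RSEM estimates from the mix of 3 ERCC1 transcripts, and that length was 2513 and 2462 bases in NT against 2738 and 2751 in NT+TPL, then 2012 and 2034 in TAM against 2213 and 2058 in TAM+TPL. The estimated length was shorter in every TAM library than in every NT library. ERCC1 overlaps POLR1G, an RNA polymerase I subunit gene on the opposite strand, at 126.56 and 102.26 FPKM in NT against 60.81 and 56.44 in NT+TPL, then 82.89 and 84.00 in TAM against 55.05 and 43.37 in TAM+TPL. Whether the counting used strand is not given in the sources used here, so reads of the 2 genes may not be separated.

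**Figure D3:**
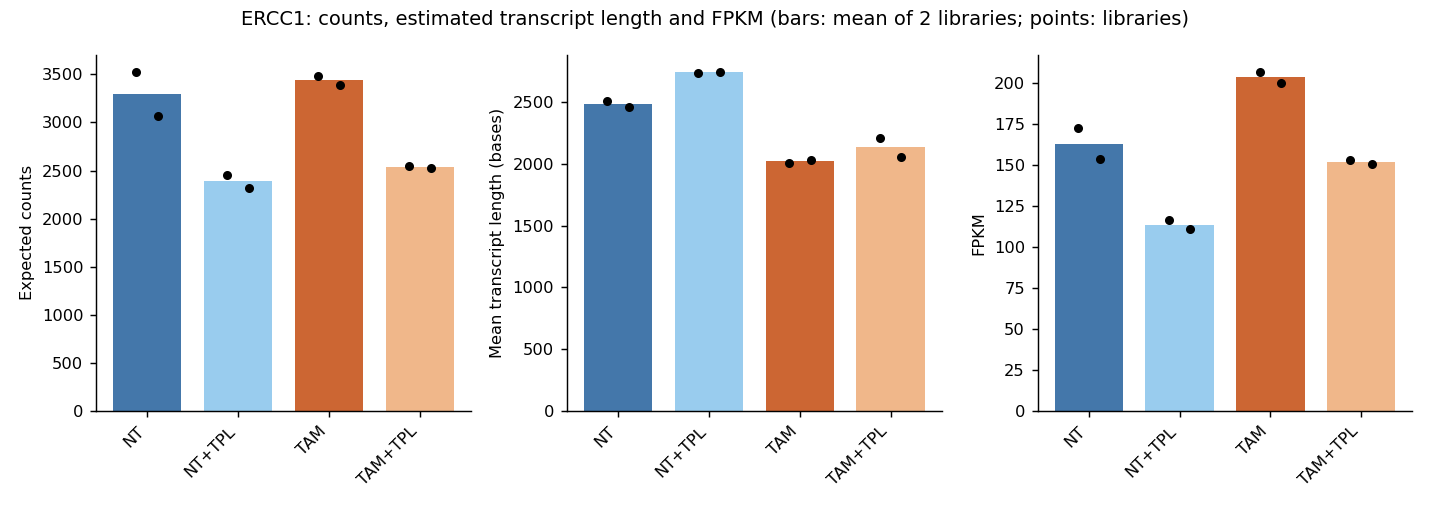
Expected counts, mean transcript length in bases and FPKM of ERCC1 (vertical axes, each from 0) in the 4 groups; bars are means and points the 2 libraries. Counts are alike in NT and TAM, the estimated length is shorter in TAM, and FPKM is higher in TAM.

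ERCC5, which encodes the 3′ nuclease XPG (chr13:103498382-103528345, plus strand), stood at 5.18 and 4.07 FPKM in NT against 5.62 and 5.10 in NT+TPL, then 3.74 and 1.98 in TAM against 3.85 and 3.16 in TAM+TPL. The FPKM of treated and untreated libraries overlapped in both states. The log2 changes with TPL were 0.20 (95% interval -0.53 to 0.94) in NT and 0.25 (-0.50 to 0.9997) in TAM cells. The files also list BIVM-ERCC5, a joined transcript that reads from the gene BIVM into ERCC5 and shares its exons, with 174 and 268 expected counts in NT against 138 and 82.4 in NT+TPL, then 301 and 305 in TAM against 97.6 and 177 in TAM+TPL. Its counts were highest in TAM cells without TPL, and its averaged change with TPL was -1.02 ± 0.239 (adjusted p = 0.0109, edgeR). RSEM gave it between 34.0 and 81.7% of the reads of the 2 together. With both rows summed, the change of ERCC5 turned to -0.35 (adjusted p = 0.154) in NT and -0.64 (adjusted p = 0.0317) in TAM cells, and the averaged change to -0.50 (adjusted p = 0.0144, edgeR). Its direction therefore differed between the ERCC5 row alone and both rows summed, and the cause was not tested.

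ERCC6, the gene of the CSB translocase that detects stalled RNAPII (chr10:50662516-50747167, minus strand), stood at 1.99 and 3.03 FPKM in NT against 1.95 and 1.16 in NT+TPL, then 1.3 and 1.21 in TAM against 1.98 and 1.68 in TAM+TPL. Its TPL libraries were the lower ones in NT cells and the higher ones in TAM cells, by a narrow margin in NT. The log2 changes were -0.70 ± 0.300 (adjusted p = 0.107) and 0.50 ± 0.303 (adjusted p = 0.238, edgeR), and without NT+TPL replicate 1 the first was -1.08 with an adjusted p of 0.0418. The interaction was 1.203 ± 0.426, with an unadjusted p of 0.0259 in edgeR's test and an adjusted p of 0.397. A joined row, ERCC6-PGBD3, in which CSB exons are spliced to a transposase gene, had 22.1 and 139 expected counts in NT against 53.3 and 1.68 in NT+TPL, then 14.4 and 14.4 in TAM against 0 and 46.8 in TAM+TPL. Its 2 libraries disagreed in every group but TAM. With both rows summed, the expected counts of NT (169 and 363) and NT+TPL (190 and 82.1) overlapped.

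**Figure D4:**
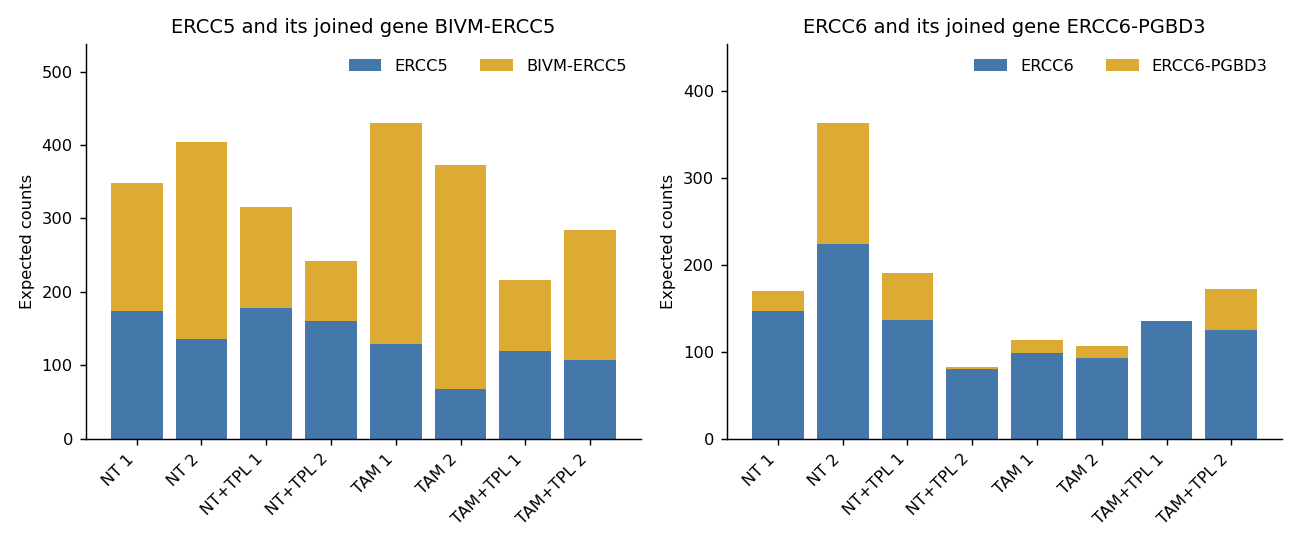
Expected counts (vertical axis, from 0) of ERCC5 and BIVM-ERCC5 and of ERCC6 and ERCC6-PGBD3, stacked, in each of the 8 libraries. BIVM-ERCC5 takes 70.0 and 81.7% of the summed reads in TAM and 45.1 and 62.5% in TAM+TPL.

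ERCC8, whose product CSA targets proteins at stalled RNAPII for ubiquitination (chr5:60162281-60240897, minus strand), was the member with the fewest reads, 27 to 45 expected counts per library. It stood at 2.47 and 2.41 FPKM in NT against 1.91 and 1.74 in NT+TPL, then 2.19 and 2.64 in TAM against 1.83 and 2.53 in TAM+TPL. The groups overlapped in TAM but not in NT cells, and the changes were -0.43 (95% interval -1.22 to 0.37) and -0.17 (-0.96 to 0.62). Both intervals include 0.

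XPC, the damage sensor itself (chr3:14186647-14220101, minus strand), stood at 4.68 and 5.63 FPKM in NT against 5.12 and 5.92 in NT+TPL, then 7.08 and 5.63 in TAM against 5.58 and 6.26 in TAM+TPL. Treated and untreated libraries overlapped in both states. Its changes with TPL were 0.08 (95% interval -0.40 to 0.57) in NT and -0.16 (-0.64 to 0.33) in TAM cells, so the fall of RAD23B was not accompanied by a detectable one of XPC.

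DDB1, the adaptor of the CUL4 ubiquitin ligase that holds DDB2 and CSA (chr11:61066923-61100577, minus strand), stood at 56.62 and 65.18 FPKM in NT against 81.44 and 51.55 in NT+TPL, then 57.39 and 48.03 in TAM against 47.52 and 48.38 in TAM+TPL. The NT+TPL libraries stood on both sides of the NT ones. The changes were 0.11 (95% interval -0.38 to 0.60) and -0.18 (-0.68 to 0.31), and without NT+TPL replicate 1 the first was -0.20.

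The second question is whether these genes differed between TAM and NT cells. No group had tamoxifen without the v-Src construct, so transformation and exposure to tamoxifen cannot be told apart. Without TPL, 0 of 10 members passed the wide rule between TAM and NT cells (6.84% of all genes did) and 0 the strict one (0.655%). In edgeR's test 3 members had an unadjusted p under 0.05, as did 1612 higher and 1768 lower genes of all 16948. DESeq2 called 2 members and 2066 of all genes by the wide rule. The 3 with an unadjusted p under 0.05 were DDB2 at -0.64 ± 0.168 (adjusted p = 0.0761), RAD23B at -0.53 ± 0.178 (adjusted p = 0.154) and ERCC6 at -0.98 ± 0.302 (adjusted p = 0.121, edgeR). With TPL in both arms, 1 member passed the wide rule (7.03% of all genes) and 0 the strict one (0.596%). That was DDB2, lower in TAM+TPL than in NT+TPL by -1.02 ± 0.164 on the log2 scale (adjusted p = 0.0140, edgeR), though not without TAM+TPL replicate 1 (-0.96, adjusted p = 0.116) or replicate 2 (-1.01, adjusted p = 0.104). The interaction called 0 members at the wide rule (0.165% of all genes), with 1 at an unadjusted p under 0.05 in edgeR's test. Over all 16948 genes, 852 with a positive and 947 with a negative difference had such a p. The comparisons with and without TPL share libraries with those above, so their agreement in direction is no separate evidence.

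The other genes of the pathway are given by counts of genes past the wide rule and by the median log2 change, beside a median over all genes of 0.09 in NT and 0.05 in TAM cells. The members' own medians were -0.15 and -0.16. Over all genes 19.8% were lower and 17.2% higher with TPL in NT cells and 18.6% lower and 14.3% higher in TAM cells by that rule. Of the 10 TFIIH subunits, 5 were lower and 1 was higher with TPL in NT cells and 4 were lower and 0 higher in TAM cells, with medians of -0.64 and -0.54. GTF2H4, the p52 subunit that anchors XPB, went from 15.94 and 14.54 FPKM in NT to 4.81 and 3.96 (-1.80 ± 0.204, adjusted p = 0.00111, edgeR) and from 13.25 and 10.79 in TAM to 4.47 and 4.81 (-1.42 ± 0.202, adjusted p = 0.0029). ERCC3, which encodes XPB, went in NT cells from 15.16 and 18.14 FPKM to 10.72 and 9.68 (-0.71 ± 0.147, adjusted p = 0.0104, edgeR) and from 15.32 and 14.21 to 10.45 and 10.59 in TAM cells (-0.53 ± 0.147, adjusted p = 0.0322). CCNH and CDK7, cyclin and kinase of its kinase module, were also lower in both states.

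Of 14 tested recognition and incision factors outside the members, 2 were lower with TPL in NT and 4 in TAM cells, and 0 were higher, with medians of 0.20 and -0.43. CUL4A, a scaffold of the ligase that DDB1 belongs to, was lower by -0.96 ± 0.150 in NT (adjusted p = 0.00382) and -1.37 ± 0.152 in TAM cells (adjusted p = 0.00121, edgeR). Of the DDB1, DDB2 and CUL4A assembly, DDB2 thus rose and CUL4A fell. CUL4B, of the same list, was not called, at 0.39 in NT (adjusted p = 0.313) and 0.22 in TAM cells (adjusted p = 0.578, edgeR). RPA2, of the single-strand binding complex that guards the opened strand, was -0.44 (adjusted p = 0.123) in NT and -0.85 (adjusted p = 0.0172, edgeR) in TAM cells. Of 18 gap filling and ligation genes, 4 were lower and 1 higher in NT and 3 lower and 1 higher in TAM cells, with medians of -0.31 and -0.54. POLD3, a subunit of the replicative polymerase delta, went in NT cells from 2.01 and 2.24 FPKM to 1.05 and 0.77 and from 4.52 and 5.01 to 1.88 and 2.71 in TAM cells.

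Other repair pathways had medians below those of the members in both states, apart from homologous recombination in NT cells. Mismatch repair (8 genes) had medians of -1.05 in NT and -1.09 in TAM cells, with 5 lower in each and 1 higher in NT. Base excision repair (17 genes) had 2 lower and 1 higher in NT and 6 lower and 1 higher in TAM cells (medians -0.36 and -0.63). End joining (9 genes) had 3 and 2 lower and 0 higher (medians -0.71 and -0.41). Homologous recombination (17 genes) had 4 lower and 3 higher in NT and 3 lower and 0 higher in TAM cells (medians -0.06 and -0.42).

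DDB2 is a p53 target, and whether p53 had a part in its rise was not tested. The 19 other p53 targets listed moved in both directions. In NT cells 5 were higher and 3 lower with TPL, and in TAM cells 7 were higher and 3 lower, with medians of -0.29 and -0.24. CDKN1A, the p21 cell cycle inhibitor, rose from 91.10 and 93.14 FPKM to 315.49 and 233.91 in NT and from 77.56 and 78.76 to 181.16 and 143.29 in TAM cells. SESN2, a stress-induced sestrin, rose by 1.07 ± 0.182 (adjusted p = 0.00516) and 1.14 ± 0.179 (adjusted p = 0.00427, edgeR). PHLDA3 fell in NT cells from 89.13 and 75.47 FPKM to 17.04 and 14.67 and from 32.12 and 30.86 to 9.22 and 9.24 in TAM cells.

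For RAD23B, the member with the lowest averaged adjusted p, the 3 genes whose log2 scaled counts were most alike over the 8 libraries were SQLE (Pearson r = 0.9976), ZNF146 (r = 0.9965) and SPATA13 (r = 0.9952). These are descriptions over 8 libraries that share the TPL and state groups. SQLE, squalene epoxidase of cholesterol synthesis, stood at 60.08 and 70.11 FPKM in NT against 12.55 and 8.25 in NT+TPL, then 36.15 and 40.50 in TAM against 11.71 and 12.94 in TAM+TPL.

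RNAPII peaks were listed over the starts of nearly all members. The deposited lists give the start and end of each RNAPII peak that contains an annotated transcription start site (TSS), 1 list per condition and no height, so occupancy is given here only as present or not and as a width. A peak lay over the canonical TSS of 10 of 10 members in NT (47.7% of 19869 protein-coding genes), 10 in NT+TPL (38.2%), 8 in TAM (42.1%) and, of the TAM+TPL list, 9 (37.4%). All 10 members had passed the filter on low counts, while the 19869 genes were not filtered by RNA level, so the shares are of unlike sets. Peak names carry a value of 0.02 in the NT, NT+TPL and TAM+TPL lists and of 0.1 after a q in the TAM list, so the TAM list may have been called differently and its widths are given side by side only. With 1 list per condition, no replicate check of a peak is possible.

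DDB2 was the member whose peaks varied most among the lists. In NT a single peak of 1713 bases (chr11:47235777-47237489) covered both the RefSeq start, whose upstream bases are printed above, and the canonical start. In NT+TPL the listed peak had 380 bases (chr11:47236429-47236808) and covered the canonical start alone, and in TAM there were 2 peaks, 1 of 291 bases at the RefSeq start and 1 of 433 at the canonical start. In TAM+TPL no peak was listed within 1 kb. The RNA of DDB2 was thus higher in both groups with TPL, where its listed peak was shorter or missing, than in the same state without TPL. The TAM list may have been called differently, so TAM and TAM+TPL are set side by side only. Peaks over the TSS were also listed for fewer of all protein-coding genes with TPL (38.2% against 47.7% in NT cells, 37.4% against 42.1% in TAM cells).

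RAD23B moved the other way in RNA, and its start lay in a peak in every list. The peak had 1162 bases in NT, 1123 in NT+TPL and 1266 in TAM+TPL, while the TAM list had 1 of 448 bases over the TSS and a second of 277 that began 509 bases downstream. The NT and NT+TPL peaks had nearly equal widths, beside an RNA level 3.37-fold lower with TPL. Of its printed upstream bases, 191 lay under the peak in NT against 249 in NT+TPL, then 107 in TAM against 250 in TAM+TPL.

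ERCC4 and ERCC6 were the members without a peak over the TSS in the TAM list. The ERCC4 peak there began 5 bases downstream of the start (158 bases wide), against 7 bases upstream in NT (221 wide), 144 upstream in NT+TPL (348 wide) and 117 upstream in TAM+TPL (315 wide). The NT+TPL peak of ERCC4 thus reached further upstream, into the printed sequence, than that of NT. This was not general: of the 10 members, 5 reached further upstream in NT+TPL than in NT and 5 less far. Of the same peaks, 3 were wider and 7 narrower. The TAM list gave ERCC6 a pair of peaks, of which the first ended 79 bases upstream of the start and the second began 2 bases downstream, where NT had a single peak of 1340 bases.

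The remaining genes had a peak over the start in all 4 lists. ERCC1 kept a peak of 1344 to 1461 bases in all 4 lists, the least variable of the members in relative width, and ERCC5 one of 953 to 1138. XPC had 790 bases in NT against 964 in NT+TPL, then 574 in TAM against 898 in TAM+TPL, and XPA 400, 558, 206 and 345 in the same order. XPC, ERCC8 and DDB1 share their upstream region with a gene on the opposite strand, LSM3 at 216 bases, NDUFAF2 at 135 and TKFC at 123 between the starts, so a peak there cannot be assigned to one of the pair. The median width over members was 1150 bases in NT against 758.5 in NT+TPL, then 511 in TAM against 720 in TAM+TPL, beside 722, 643, 485 and 518 over all genes with a peak over the TSS.

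**Figure D5:**
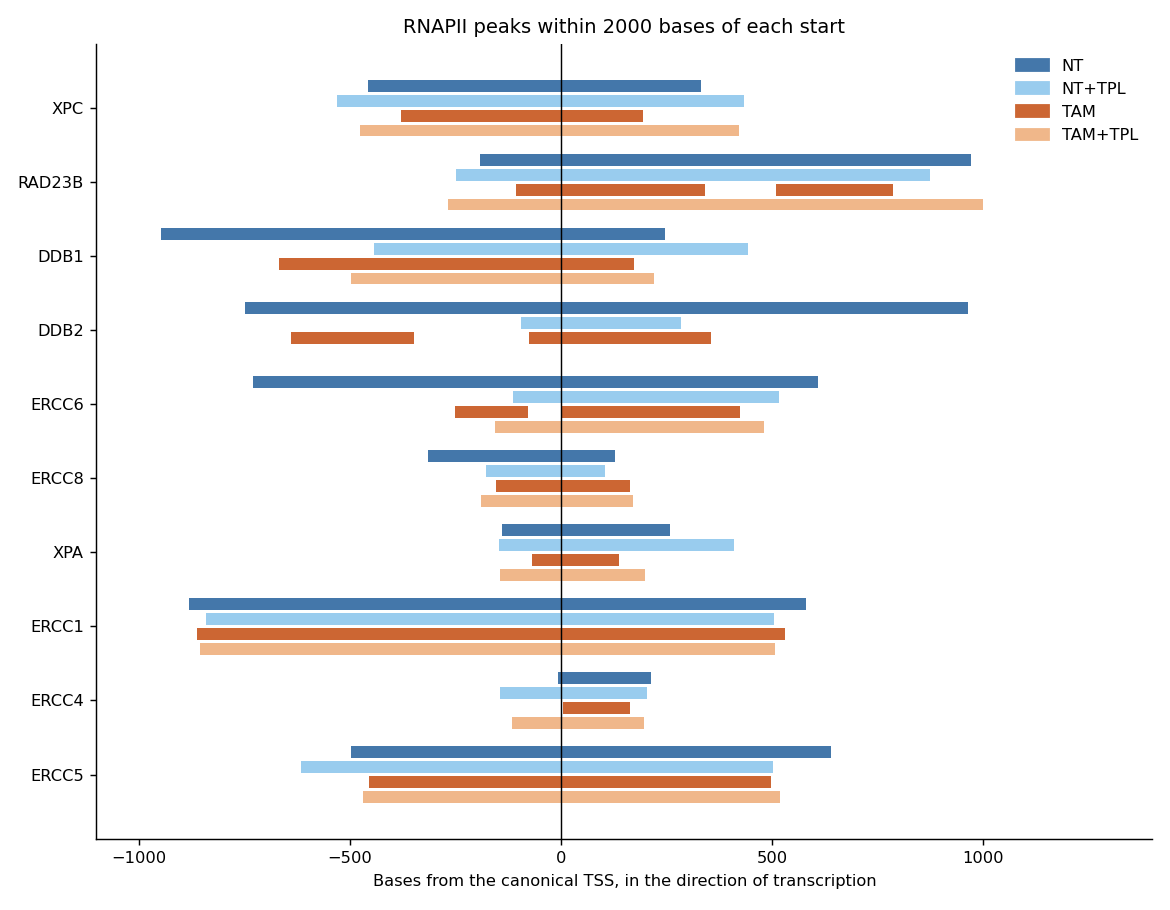
RNAPII peaks listed within 2000 bases of the canonical TSS (vertical line) of each member, drawn to scale in bases from the TSS along the direction of transcription, 1 bar per peak and 1 row per condition. DDB2 has a 1713-base peak in NT, a 380-base one in NT+TPL, 2 in TAM and none in TAM+TPL.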

How the data were processed

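The 8 RNA-Seq libraries of MCF10A-Er-Src cells formed 4 groups of 2; the labels give TPL as 125 nM for 4 h. The expected counts were deposited by the authors, who mapped poly-A reads to transcripts with Bowtie2 and ran RSEM, with no normalization. The FPKM values and mean transcript lengths were deposited by the authors from the same run. For the peak lists the authors called RNAPII peaks on hg19 with MACS 1.4.2 over input and HOMER, 1 list per condition; the submitters' processing notes name BWA and the study's methods SOAP2 as aligner.

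Genes left out of a file were taken as 0, and 120 of 23604 rows had no symbol. Rounded expected counts were tested with edgeR 4.0.16 in R 4.3.3 (filterByExpr, TMM, quasi-likelihood test, Benjamini-Hochberg adjustment over 16948 genes) in 1 fit of 4 groups. TMM factors lay between 0.975 and 1.03, and the biological coefficient of variation was 0.315. Standard errors were derived as the log2 fold change over the root of F. The script was tested on simulated data, in which the spread between libraries was set lower than that of these data. Libraries of a group differed beyond counting noise (chi-square per degree of freedom of 9.93 to 33.1), and the study's methods call the 2 libraries of a group independent biological replicates; the labels do not say whether they were separate cultures. TSSs were the Ensembl canonical starts of GENCODE release 44 placed on GRCh37; positions count from 1.

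The members and gene lists were chosen with earlier results of these data known. All 10 members are named. Of each other list up to 4 genes could be named, those with the lowest adjusted p with TPL in TAM cells and a mean of at least 1 FPKM. CUL4B was added beside CUL4A. Alternatives were DESeq2 1.42.0, DESeq2 size factors, library size, upper quartile and GAPDH scaling, no filter, at least 10 counts in every library, only the groups compared, a replicate block, limma 3.58.1 on log2(FPKM + 1) and log2(FPKM + 0.1), all rows of a gene summed, joined genes added, each library left out, and for peaks any annotated TSS or 1 kb. Figures used matplotlib 3.10.9 in Python 3.11.15. ChIP signal and inputs were not used here.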

Additional observations from a re-analysis of the deposited data

Results flagged for a closer look

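ERCC6 stood out because its TPL libraries lay below the untreated ones in NT cells and above them in TAM cells. The difference between the 2 effects was 1.203 on the log2 scale. Its unadjusted p in edgeR's interaction test was 0.0259 and its adjusted p over all genes was 0.397, so it was not past the threshold, and leaving out 1 library gave between 0.87 and 1.59. The row rests on 80.4 to 224 expected counts per library and shares exons with ERCC6-PGBD3, whose counts lay between 0 and 139. With the 2 rows summed, expected counts were 169 and 363 in NT against 190 and 82.1 in NT+TPL, so these groups overlapped. The sums were 113 and 107 in TAM against 135 and 172 in TAM+TPL. The cause of the pattern was not tested.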

How the results depend on the processing

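RAD23B and DDB2 kept their direction and the wide call with TPL in NT cells under every alternative and every library left out, and in TAM cells too except for DDB2 without TAM replicate 1 (adjusted p = 0.0535, edgeR). Over all genes the strict count in NT cells went from 666 to 2554 with DESeq2. It was 1439 of 12455 genes with at least 10 counts and 2004 of 15754 with all rows summed. It was 609 with DESeq2 size factors, 566 with library size, 570 with upper quartile scaling, and 0 with the replicate block and only the groups compared. RAD23B lost the strict call there with any library left out, as did most or all genes. The count of members past that rule went from 1 to 2 with DESeq2, at least 10 counts and all rows summed. It went to 0 with DESeq2 size factors, library size, upper quartile, only the groups compared and the replicate block. By the wide rule it went from 2 to 5 with GAPDH scaling and 4 with DESeq2 in NT cells (2 to 3 with a library left out), and from 2 to 4 with DESeq2 and with limma on log2(FPKM + 1) in TAM cells (1 to 3). Averaged over states, upper quartile scaling gave 2 by the strict and 3 by the wide rule, and a library left out gave 0 to 1 and 3 to 5. Between TAM and NT cells the wide rule gave 3 with GAPDH scaling and 2 with DESeq2 without TPL; with TPL it gave 0 in a fit of only the groups compared and 0 to 1 with a library left out. A fit of only the groups compared does not apply to the averaged effect and the interaction. The causes were not tested.

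GAPDH scaling moved the median of all genes from 0.09 to -0.26 in NT, from 0.05 to -0.07 in TAM cells and, for TAM against NT, from -0.03 to -0.50; upper quartile scaling moved it to 0.31 and 0.29 with TPL. The share of wide calls that were higher went from 46.5% to 23.7% (GAPDH) and 60.9% (upper quartile) in NT cells and from 43.5% to 34.7% and 61.1% in TAM cells. Signs that turned were of members without a call, ERCC5 with its joined row excepted. With GAPDH scaling, XPC (-0.28), ERCC5 (-0.14) and DDB1 (-0.27) turned in NT cells and ERCC5 averaged (-0.0088). With upper quartile scaling XPC (0.084), ERCC8 (0.069) and DDB1 (0.056) turned in TAM cells. With joined rows added ERCC5 was -0.35 in NT, -0.64 in TAM, -0.50 averaged and 0.067 between TAM and NT cells. With a library left out the ranges that crossed 0 were -0.052 to 0.24 (XPC) and -0.20 to 0.40 (DDB1) in NT cells, and -0.32 to 0.023 (XPC), -0.13 to 0.78 (ERCC5) and -0.38 to 0.037 (ERCC8) in TAM cells. Single libraries of a group were assumed to vary like the other groups.

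Over all genes the strict count ranged over the alternatives from 0 to 2554 in NT (666 as reported) and 0 to 2278 in TAM cells (488), and the wide count from 3253 to 7500 (6274) and 2456 to 7036 (5590). With the replicate block, 0 genes passed the strict rule in NT and in TAM cells, and 5397 and 4675 the wide rule. The numbers are not known to pair samples: deviations from group means correlated between -0.1353 and 0.0501, so the block is a check only; RAD23B was -1.75 (adjusted p = 0.00329) and DDB2 1.26 (adjusted p = 0.0055) in NT cells under it. With the numbers of NT+TPL crossed, an alternative chosen after seeing the data, the strict rule called 98 genes and 0 members and the wide rule 6072 genes. Peaks over any annotated TSS and within 1 kb both gave 10 members in TAM, where the canonical TSS gave 8, and left the counts of the other lists at 10, 10 and 9.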
